A study of Homo sapiens with 8 samples.

Results

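Gene expression in MCF10A cells encapsulated in stiff col gels was compared with that in soft IPNs, which uses 4 of the 8 RNA-seq libraries of the series, 2 per gel. MCF10A is a spontaneously immortalized, non-malignant human mammary epithelial cell line, and all libraries come from this 1 line. Stiff col gels were made of a high concentration of rat tail collagen-1 (col-1) without reconstituted basement membrane (rBM), whereas soft IPNs were interpenetrating networks of rBM and alginate, a polysaccharide that carries no cell adhesion ligand of its own. No calcium was added to either gel. The other pair of gels, used here only for reference, was the stiff IPN, the same rBM and alginate network crosslinked with calcium, and soft col:rBM, a gel of rBM with a low concentration of col-1. Cells were kept in the gels for 7 days, in wells that had all been precoated with rBM, and the replicate number marks 1 of 2 trials. Stiff col and soft IPN differ in stiffness, in col-1, in rBM and in alginate at the same time, so these 4 changes cannot be told apart within the comparison.

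In tissue, epithelial cells rest on a basement membrane of laminin and collagen IV, which they bind through integrins such as the laminin receptor α6β4. Col-1 is the main fibrous protein of the stroma beyond the basement membrane, which cells of an invading carcinoma come to touch. MCF10A cells have basal features, with keratins 5 and 14, P-cadherin and EGFR, and form hollow acini in soft rBM. In many cell types on stiff, flat substrates, the transcriptional regulator YAP moves into the nucleus and raises genes such as CTGF and CYR61, which is why YAP target genes were read in these gels.

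Of 12941 genes tested, 77 (0.595%) passed an adjusted p of 0.05 in a limma fit with the trial as a block, 34 higher in stiff col (0.263%) and 43 lower (0.332%). The genes that rose included FN1, POSTN and COL6A3 of the interstitial matrix, the EGFR ligand AREG, the cytokine genes CXCL8, CXCL3, CCL20 and IL33, and the BMP-responsive genes ID2 and ID3. Those that fell included the hypoxia-responsive genes NDRG1, CA9, EGLN3 and HK2, the keratins KRT14 and KRT15, the squamous differentiation gene TGM1 and the epithelial surface genes MUC1 and FXYD3. All 77 moved the same way in both trials, as did 60.9% of all genes tested. The paired fit takes its residual from the difference between trials and so favors genes whose trials agree, which makes this no separate support. For 63 of the 77, the 2 stiff col values did not overlap the 2 soft IPN values, against 28.7% of all genes tested, and the other 14 differed between gels within each trial but overlapped across trials. The calls were made from these same values and favor large changes, so this is no separate support either. Changes of called genes ranged from 0.82 to 3.37 on the log2(normalized count + 1) scale in absolute value, while the median of all genes was -0.01 with quartiles of -0.21 and 0.21.

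These calls depend on the model. Limma called 0 genes without the trial block (290 at an unadjusted p under 0.05, against 1881 with the block), 0 without the filter on low values (1615 unadjusted) and 0 when all 8 libraries shared 1 estimate of the spread (1561 unadjusted), and when 1 of the 4 libraries was also left out of that 8-library fit, at most 1 gene was called and none of the 77. Dropping the block or the filter, or adding the other 4 libraries, leaves each estimated change as it was, so the sign could not differ there. With 1 library left out the 77 kept the sign of their change. Here and throughout, fits with 1 library left out keep the gels outside the comparison and take part of the trial effect from them. With libraries rescaled to equal sums the called genes numbered 295, 71.5% of them higher in stiff col against 44.2% here, with the median of all genes moved to 0.15.

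The libraries held 15942669 to 18583116 reads on genes, as worked out from the scaling factor of each library, so that 3 reads equal 2.41 to 3.39 normalized counts. Differences between trials were larger than those between gels: the median absolute log2 difference between trial 2 and trial 1 was 0.40 in stiff col and 0.34 in soft IPN, whereas between the gels it was 0.22 within trial 1 and 0.28 within trial 2. Of the 10 basal-like mammary markers all were detected and 9 had a log2 fold change below 0, against 50.9% of all genes tested. Their summed level was 126461 and 164686 normalized counts in soft IPN and 105090 and 97469 in stiff col. The defining markers COL1A2, COL3A1 and THY1 of fibroblasts, CDH5 and CLDN5 of endothelium, PTPRC of immune cells and PGR, CSN2 and LALBA of luminal cells were at 0 in all 4 libraries. The summed levels of the other cell type lists were 1175 to 1740 for 9 fibroblast markers, 55 to 263 for 6 endothelial, 1113 to 4634 for 7 immune, 18 to 27 for 4 adipocyte and 8 to 20 for 7 luminal markers. In bulk RNA, fewer cells of a kind and less RNA per cell cannot be told apart.

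Promoter sequences of called genes from the 2 lists with the most calls are shown here because their members are read as targets of a known factor, HIF for the hypoxia response and NF-kB for inflammatory cytokines. The sequences are the 250 bases before a RefSeq gene start in GRCh38.p14, 5′ to 3′ on the strand of the gene, with each match in capitals to ACGTG, the core of the hypoxia response element, or to GGANNTTCC, the core of an NF-kB site, on either strand. They were picked after the values were seen, as called members with a match.
CA9 (chr9:35673678-35673927, plus strand): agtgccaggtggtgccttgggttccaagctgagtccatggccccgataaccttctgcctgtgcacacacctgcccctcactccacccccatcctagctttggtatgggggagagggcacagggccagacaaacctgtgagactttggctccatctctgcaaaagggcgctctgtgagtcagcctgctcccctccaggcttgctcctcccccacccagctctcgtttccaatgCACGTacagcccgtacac
HK2 (chr2:74833877-74834126, plus strand): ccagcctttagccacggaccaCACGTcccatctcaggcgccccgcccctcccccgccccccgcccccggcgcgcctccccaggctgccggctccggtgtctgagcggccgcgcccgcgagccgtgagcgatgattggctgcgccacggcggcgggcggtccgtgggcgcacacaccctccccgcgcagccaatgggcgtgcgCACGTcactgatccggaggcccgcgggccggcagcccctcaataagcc
CXCL8 (chr4:73740319-73740568, plus strand): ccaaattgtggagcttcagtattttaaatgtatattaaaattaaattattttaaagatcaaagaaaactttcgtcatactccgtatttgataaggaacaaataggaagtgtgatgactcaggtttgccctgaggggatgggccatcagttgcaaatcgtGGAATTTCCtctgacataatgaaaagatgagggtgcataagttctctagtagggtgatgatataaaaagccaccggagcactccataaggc
CXCL3 (chr4:74038690-74038939, minus strand): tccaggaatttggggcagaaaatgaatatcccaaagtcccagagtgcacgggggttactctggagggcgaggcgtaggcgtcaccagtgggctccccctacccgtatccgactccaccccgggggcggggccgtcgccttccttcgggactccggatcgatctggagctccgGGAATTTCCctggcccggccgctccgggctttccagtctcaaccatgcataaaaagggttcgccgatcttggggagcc
NFKBIZ (chr3:101827740-101827989, plus strand): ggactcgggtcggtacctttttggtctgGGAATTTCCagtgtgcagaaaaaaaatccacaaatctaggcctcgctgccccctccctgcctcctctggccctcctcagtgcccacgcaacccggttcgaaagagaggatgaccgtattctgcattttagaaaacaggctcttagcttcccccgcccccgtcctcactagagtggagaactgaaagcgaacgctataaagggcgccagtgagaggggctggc
The match in CA9 begins at base -18 from the gene start, those in CXCL8, CXCL3 and NFKBIZ at -91, -78 and -222, and HK2 has 2 matches in this window. ACGTG was found in 27 of 54 promoters of the hypoxia list, some genes having several starts, and in 18.5% of all 35116 promoters. GGANNTTCC was in 12 of 30 promoters (40.0%) of the inflammatory list and in 3.8% of all promoters. No match was found in the windows of EGLN3, CCL20 and IL33 or in that of a second NFKBIZ start. A second HK2 start, not shown, had 4 matches counted over both strands, and no window of NDRG1 was among those examined. Of the promoters of all tested genes, 22.1% held ACGTG and 3.9% GGANNTTCC. Among called genes, ACGTG was in 19.0% of 42 promoters of risen genes and 20.7% of 29 of fallen genes, and GGANNTTCC in 9.5% and 3.4%. A match describes letters in the window and not binding.

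Extracellular matrix genes were considered first, since the gels differ in matrix. Of 24 tested genes of the interstitial matrix, 3 rose (FN1, POSTN and COL6A3) and 0 fell, with a median log2 fold change of 0.10. The median was 0.20 within trial 1 and -0.10 within trial 2, where 14 of the 24 were lower in stiff col. For reference beside this and every later list, 0.263% of all genes tested were called higher and 0.332% lower. At an unadjusted p under 0.05 in limma, 6.7% of all genes were higher and 7.84% lower. FN1 (chr2:216225163-216300796 in hg19, minus strand) encodes fibronectin, which links cells to collagen and fibrin. It had 11610 and 9691 normalized counts in soft IPN and 57569 and 23828 in stiff col, each pair listed with trial 1 first here and throughout. Both stiff col libraries were above both soft IPN libraries, a log2 fold change of 1.80 ± 0.27 (moderated SE, n = 2 per gel, adjusted p = 0.0209). Values after ± are limma's moderated SE throughout. It borrows spread from other genes, so it does not measure the spread of a gene's own replicates. FN1 changed by 2.31 in trial 1 and 1.30 in trial 2. POSTN, which encodes the matricellular protein periostin, had the largest log2 fold change of the called genes, from 12 and 5 in soft IPN to 100 and 82 in stiff col. Its log2 fold change was 3.37 ± 0.38 (adjusted p = 0.00744), with the trial 2 soft IPN value close to the 3-read limit. COL6A3, a chain of the microfibrillar collagen VI, stood at 185 and 249 against 688 and 481 and rose by 1.42 ± 0.23 on the log2 scale (adjusted p = 0.0355). The change of COL6A3 was 0.68 with soft IPN replicate 1 left out and 2.15 with soft IPN replicate 2 left out. The other 2 chains of collagen VI, named after their values were seen, did not pass, with COL6A1 at 348 and 289 against 415 and 170 and COL6A2 at 50 and 32 against 55 and 10.

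The gene of col-1 itself and the genes of the basement membrane were not called. COL1A1, which encodes the α1 chain of the cells' own col-1, had 222 and 239 normalized counts in soft IPN and 242 and 214 in stiff col. No basement membrane gene passed limma's test among 19 tested (3 at an unadjusted p under 0.05), and the list's median was -0.01. The laminin chain genes LAMA3, with 45060 and 35909 normalized counts in soft IPN and 56592 and 27651 in stiff col, and LAMB3, with 41574 and 39370 against 49086 and 27322, overlapped between gels. Both were higher in stiff col in trial 1 and lower in trial 2. COL4A1 of the collagen IV network had 917 and 664 against 1286 and 776 (adjusted p = 0.333). Matrix crosslinking and collagen processing genes gave 0 calls by limma among 18 (2 unadjusted), with a median of -0.21 made of 0.18 in trial 1 and -0.45 in trial 2. In that list, LOX, the enzyme that crosslinks collagen, had 3207 and 4950 against 4987 and 2277, and the transglutaminase TGM2 had 2434 and 1010 against 3690 and 854.

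Integrins and other matrix receptors gave 0 calls by limma among 22 tested, with a median of -0.07. At an unadjusted p under 0.05, 4 were higher and 1 lower, against 6.7% and 7.84% of all genes. ITGA2, a subunit of the collagen receptor α2β1, had 2467 and 2659 normalized counts in soft IPN and 2730 and 3449 in stiff col, values that did not overlap but differed by 0.26 ± 0.16 in log2 (adjusted p = 0.484). Its partner ITGB1 overlapped between gels, at 33583 and 29816 against 47616 and 30656. ITGB4 of the laminin receptor had 43446 and 36407 against 33628 and 15995, a log2 fold change of -0.78 ± 0.27 that did not pass (adjusted p = 0.227), and ITGA6 had 6681 and 13801 against 5860 and 10891. ITGB2, a leukocyte integrin subunit, was at 177 and 126 against 208 and 114.

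Matrix proteases and their inhibitors gave 0 calls by limma among 21, with a median of -0.07. At an unadjusted p under 0.05, 3 were higher and 4 lower, against 6.7% and 7.84% of all genes. The interstitial collagenase gene MMP1 had 76 and 86 normalized counts in soft IPN and 32 and 14 in stiff col, with no overlap, and missed the threshold at a log2 fold change of -1.88 ± 0.38 (adjusted p = 0.0646). MMP14, the membrane-bound collagenase, had 5720 and 6708 against 8271 and 6629, and the gelatinase gene MMP9 was low, at 10 and 17 against 15 and 27. The urokinase gene PLAU differed by 0.11 ± 0.15 in log2, with 1662 and 2092 against 1913 and 2131.

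**Figure D1:**
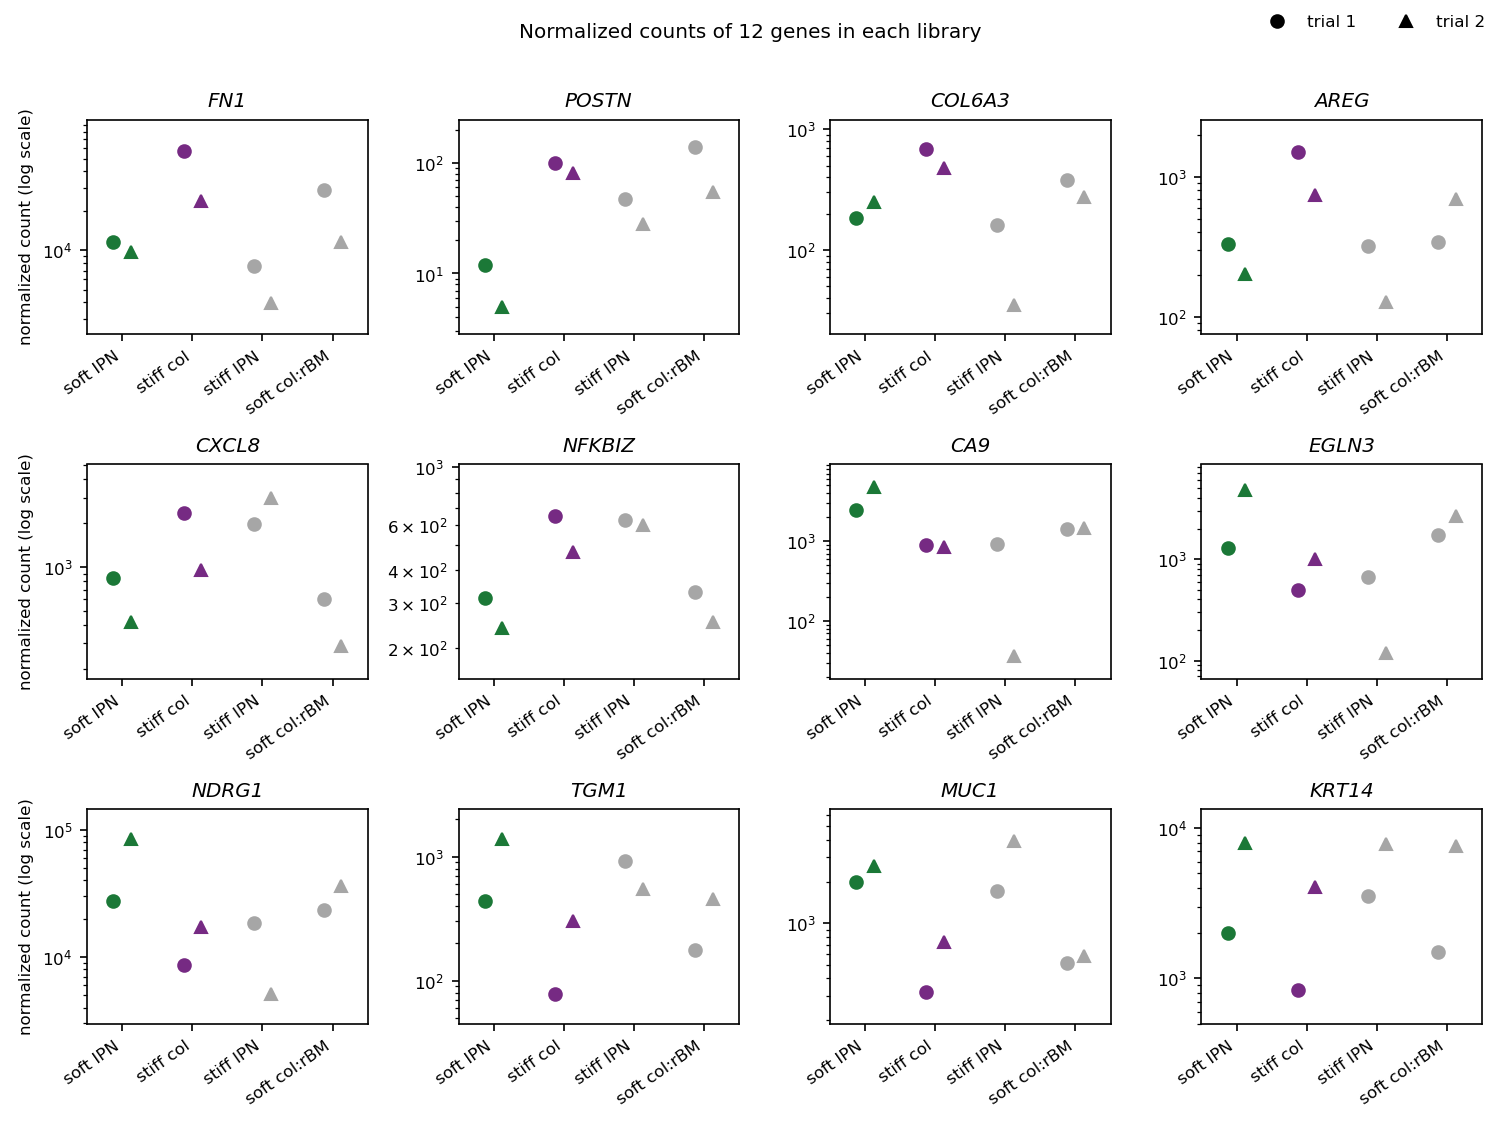
Normalized counts (log axis) of 12 called genes in each of the 8 libraries, with circles for trial 1 and triangles for trial 2, soft IPN in green, stiff col in purple and the other gels in grey. FN1, POSTN, COL6A3, AREG, CXCL8 and NFKBIZ are higher in both stiff col libraries than in both soft IPN libraries, CA9, EGLN3, NDRG1, TGM1 and MUC1 are lower, and KRT14 is lower within each trial but overlaps across trials.

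Growth factor and TGF-β family genes included 3 rises. AREG (chr4:75310853-75320722 in hg19, plus strand) encodes amphiregulin, a ligand of EGFR that mammary epithelium uses during ductal growth. It rose from 329 and 201 normalized counts in soft IPN to 1511 and 736 in stiff col, and its lowest stiff col value was above the highest soft IPN value. The log2 fold change was 2.03 ± 0.17, with 2.20 in trial 1 and 1.87 in trial 2 (adjusted p = 0.00199). It was the only call among 27 tested genes of the EGF family and ERK feedback, whose median was -0.13 and moved to 0.03 when libraries were rescaled to equal sums. EGFR itself had 2897 and 4199 against 2444 and 2983 (adjusted p = 0.334). ID2 and ID3, inhibitors of basic helix-loop-helix factors and direct targets of BMP signaling, were the calls among 29 tested genes of the TGF-β and BMP pathway, which had a median of 0.16. ID2 had 87 and 144 in soft IPN and 211 and 343 in stiff col, a log2 fold change of 1.26 ± 0.21 (adjusted p = 0.0408). ID3 had 1002 and 1109 against 1811 and 1905, which at 0.82 ± 0.15 was the smallest change among the called genes (adjusted p = 0.0475).

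Of 30 inflammatory genes tested 5 rose (CXCL8, CXCL3, CCL20, NFKBIZ and IL33) and 0 fell. A log2 fold change above 0 was found for 18 members and below 0 for 12, down to -1.25, with 50.9% of all genes below 0. The median log2 fold change was 0.22, with 0.21 in trial 1 and 0.20 in trial 2. It was 0.03 in the 7-library fit without stiff col replicate 1, which takes part of the trial effect from the other gels. At an unadjusted p under 0.05, 9 members were higher and 3 lower, against 6.7% and 7.84% of all genes. CXCL8, the neutrophil chemokine interleukin-8, had 848 and 418 normalized counts in soft IPN and 2356 and 957 in stiff col, and every stiff col value was above every soft IPN value. Its log2 fold change was 1.33 ± 0.16 (adjusted p = 0.00834). The related chemokine gene CXCL3 rose from 134 and 49 to 322 and 139, although reads shared with its close paralogs CXCL1 and CXCL2 make its value uncertain. CCL20, which attracts cells through CCR6, rose from 414 and 267 to 914 and 569, by 1.11 ± 0.16 in log2 (adjusted p = 0.0209). NFKBIZ encodes a nuclear regulator of NF-kB that is itself induced by it, and rose from 314 and 240 to 651 and 473. IL33, an alarmin cytokine of epithelial nuclei, rose from 216 and 135 to 634 and 388, by 1.53 ± 0.18 in log2 (adjusted p = 0.00834). IL1RL1, the receptor of IL-33 and named after its values were seen, had 462 and 70 against 2241 and 139 and also passed (adjusted p = 0.0387), with overlap across trials. The change of IL1RL1 fell from 1.63 to 0.82 in log2 with stiff col replicate 1 left out, and it was 2.28 within trial 1 and 0.98 within trial 2.

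Other genes that rose were spread over several functions. SLC7A8 and SLC7A11, both amino acid transporters, rose by 1.6 ± 0.28 and 1.0 ± 0.17 in log2. SLC7A8 had 68 and 26 against 225 and 75. SLC7A11, the cystine transporter and 1 of 26 tested genes of the ATF4 and unfolded protein response, had 380 and 1334 against 640 and 3162, so that the trials differed more than the gels. The adhesion molecule gene MCAM had 76 and 153 against 384 and 324, with all 4 values apart by gel (1.70 ± 0.29 in log2, adjusted p = 0.0387). S1PR3, a receptor of sphingosine 1-phosphate, went from 219 and 155 to 582 and 384. PLAG1, a zinc finger transcription factor, went from 60 and 21 to 151 and 89. The remaining genes among the 15 largest rises without overlap were LOC344887 (1.85), RSRP1 (1.79), MIR5047 (1.39) and LOC101927136 (1.29 in log2). Without soft IPN replicate 2, RSRP1 changed by 1.02 and MIR5047 by 0.82. DKK1, a secreted inhibitor of Wnt signaling, and AKR1C1, an aldo-keto reductase with near-identical paralogs that make its counts uncertain, were named after their values were seen. DKK1 had 1514 and 310 against 2601 and 934 and AKR1C1 had 2202 and 789 against 5109 and 1877, both overlapping across trials. The change of DKK1, 1.18 in log2, was 0.53 without soft IPN replicate 2 and 1.84 without soft IPN replicate 1.

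Hypoxia response and glycolysis genes had a median log2 fold change of -0.57. The list covers targets of HIF, the transcription factor that oxygen-sensing prolyl hydroxylases mark for degradation, and the enzymes that turn glucose into lactate. Of 37 members tested 4 fell (CA9, EGLN3, NDRG1 and HK2) and 0 rose, and 36 had a log2 fold change below 0, against 50.9% of all genes. At an unadjusted p under 0.05, 20 members were lower and 0 higher, and 15 were lower without overlap, against 14.7% of all genes. NDRG1, a stress-induced gene that hypoxia raises, had 27790 and 84148 normalized counts in soft IPN and 8596 and 17279 in stiff col. Both stiff col values lay under both soft IPN values, a log2 fold change of -1.99 ± 0.24 (adjusted p = 0.00834). CA9 (chr9:35673925-35681156 in hg19, plus strand), a cell-surface carbonic anhydrase and standard marker of hypoxic tissue, had 2431 and 4770 against 894 and 837. Its log2 fold change was -1.98 ± 0.22 (adjusted p = 0.00744). EGLN3, 1 of the prolyl hydroxylases that HIF itself induces, had 1280 and 4742 against 496 and 1004 and changed by -1.80 ± 0.20 in log2 (adjusted p = 0.00744). HK2, the hexokinase that starts glycolysis, had 1486 and 2678 against 810 and 1101 and changed by -1.08 ± 0.16 (adjusted p = 0.0209).

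Members of this list that did not pass the test include most of glycolysis, and 4 of them are given here, picked after the values were seen. The glucose transporter SLC2A1 had 3387 and 7379 normalized counts in soft IPN and 2300 and 2492 in stiff col, and lactate dehydrogenase LDHA had 41512 and 94450 against 29332 and 55185. VEGFA, the angiogenic factor, had 3927 and 5807 against 3455 and 4309. CA12 alone had a log2 fold change above 0, at 9077 and 21260 against 14258 and 14699. The difference was larger in trial 2, where 37 of 37 members were lower in stiff col with a median of -0.85, than in trial 1, where 30 were lower with a median of -0.35. The soft IPN library of trial 2 had the highest value of each of the 4 called genes. Fits that leave out 1 library keep the other gels and take part of the trial effect from them. In such fits the median of the list was -0.24 without the trial 2 soft IPN library and -0.98 without that of trial 1. CA9 changed there by -0.71 and -3.24, and EGLN3 by -0.72 and -2.88, in the same order. Without the trial 2 soft IPN library, HK2 changed by -0.71 and NDRG1 by -1.15. These values therefore do not isolate the weight of a soft IPN library. Within trial 1 alone, CA9 differed by -1.44, EGLN3 by -1.37, HK2 by -0.87 and NDRG1 by -1.69. Within trial 2 alone, they differed by -2.51, -2.24, -1.28 and -2.28. PGF, a VEGF family ligand that hypoxia also raises, is not in the list, was named after its values were seen and had 125 and 1124 against 46 and 195 (adjusted p = 0.0168), overlapping across trials and changing by -1.01 in place of -1.97 without soft IPN replicate 2.

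**Figure D2:**
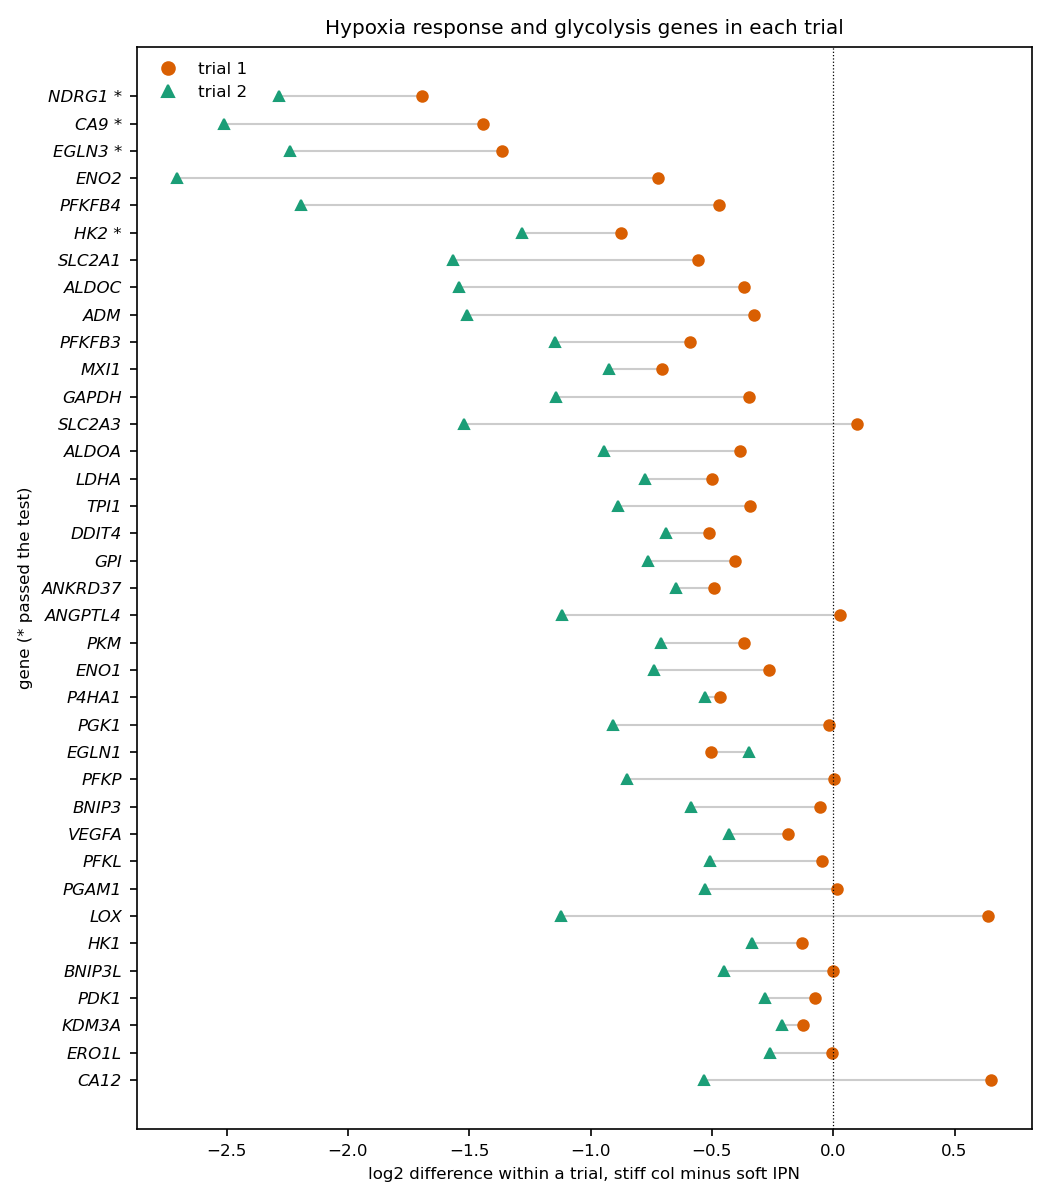
Log2 difference between stiff col and soft IPN within trial 1 (circles) and trial 2 (triangles) for the 37 genes of the hypoxia response and glycolysis list, ordered by their mean, with an asterisk on the 4 called genes. Symbols left of the dotted line at 0 are lower in stiff col, which holds for 30 genes in trial 1 and for 37 in trial 2.

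Keratins made up a further group with falls. Of 13 keratins tested 2 fell (KRT14 and KRT15) and 0 rose, against 0.332% and 0.263% of all genes. A log2 fold change below 0 was found for 11, against 50.9% of all genes, with a median of -0.52. KRT14, the partner of KRT5 in basal cells, had 2003 and 7964 normalized counts in soft IPN and 839 and 4034 in stiff col, lower within each trial by -1.25 and -0.98 in log2 but overlapping across trials (adjusted p = 0.0209). KRT15, another basal keratin, had 3053 and 6839 against 717 and 2834, with no overlap, and changed by -1.68 ± 0.20 (adjusted p = 0.00834), or by -1.09 without stiff col replicate 1. KRT5 had 19940 and 44022 against 7417 and 24369 and missed the threshold (adjusted p = 0.07), as did KRT17 at 5552 and 18767 against 3049 and 13097. The luminal keratins KRT8 and KRT18 had 5366 and 4835 against 5061 and 3153 and 7326 and 5720 against 5530 and 4014. TP63, which encodes the transcription factor of basal identity, had 650 and 1485 against 622 and 1589, a difference of 0.02 ± 0.15 in log2.

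TGM1 encodes the transglutaminase that crosslinks the cornified envelope, the protein shell of squamous cells. It had 439 and 1388 normalized counts in soft IPN and 78 and 305 in stiff col, and both stiff col values were under both soft IPN values. The log2 fold change of -2.33 ± 0.18 was close to equal in the trials, at -2.48 and -2.18 (adjusted p = 0.00199). It was the call among 13 tested genes of the cornified envelope list, of which 11 were below 0, against 50.9% of all genes. The median of the list was -0.55. IVL, the envelope precursor involucrin, had 42 and 126 against 36 and 196 (adjusted p = 0.779). The envelope plaque gene PPL, with 2071 and 770 against 457 and 275, and CASP14, a caspase of cornification with 1625 and 2005 against 522 and 204, also fell. Neither is in the cornified envelope list, and both were named as being among the 15 largest falls without overlap. CASP14 changed by -2.46 ± 0.30 in log2 (adjusted p = 0.00834), with -1.64 in trial 1 and -3.29 in trial 2. In the 7-library fits it changed by -1.05 without soft IPN replicate 2 and -3.88 without soft IPN replicate 1. Kallikreins and protease inhibitors of the same layer gave 0 calls by limma among 14, with a median of -0.42. At an unadjusted p under 0.05, 7 of them were lower and 0 higher, against 7.84% and 6.7% of all genes. S100 proteins gave 0 calls among 13 (2 unadjusted). S100A7 was near the detection limit, at 9 and 12 against 0 and 11.

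Junction genes, epithelial lineage factors and epithelial surface genes also held falls. Of 29 tested genes of cell-cell junctions 1 fell and 0 rose, against 0.332% and 0.263% of all genes. In this list 22 were below 0, against 50.9% of all genes, with a median of -0.46. At an unadjusted p under 0.05, 16 were lower, against 7.84%. The call was PKP2, a desmosomal plaque gene, with 2156 and 2134 normalized counts in soft IPN and 1262 and 1151 in stiff col, and a log2 fold change of -0.83 ± 0.15 (adjusted p = 0.045). E-cadherin (CDH1) had 2312 and 2724 against 1283 and 1823, without overlap, and missed the threshold at -0.71 ± 0.16 (adjusted p = 0.0758). P-cadherin (CDH3) had 7773 and 9567 against 6598 and 6125, and EPCAM had 314 and 181 against 124 and 132. ELF3, an epithelial transcription factor, fell from 240 and 64 to 71 and 22 (-1.62 ± 0.28 in log2, adjusted p = 0.0438), with overlap across trials. It was the call among 19 tested epithelial lineage factors, of which 16 were below 0, against 50.9% of all genes, with a median of -0.45. MUC1 (chr1:155158300-155162707 in hg19, minus strand), a mucin of the apical membrane, had 1998 and 2608 against 321 and 736. Its log2 fold change was -2.23 ± 0.20 (adjusted p = 0.00212), with the 2 gels well apart. FXYD3, a regulator of the sodium pump named after its values were seen, had 3212 and 2914 against 832 and 1311 and changed by -1.55 ± 0.20 (adjusted p = 0.00891).

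The list of EMT regulators and mesenchymal genes, which does not hold FN1, gave 0 calls by limma among 15 tested. At an unadjusted p under 0.05, 4 were higher and 1 lower, against 6.7% and 7.84% of all genes. The list had a median of -0.08 that became 0.08 with libraries rescaled to equal sums. Its medians within trials were 0.26 and 0.14, opposite in sign to the median of the per-gene means. VIM had 61638 and 30868 normalized counts in soft IPN and 46195 and 18460 in stiff col, lower in stiff col within each trial (adjusted p = 0.32). N-cadherin (CDH2) had 126 and 78 against 71 and 86. Actomyosin and focal adhesion genes gave 0 calls among 35 (3 unadjusted), with a median of -0.05 that became 0.11 with equal sums.

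Further genes among the 15 largest falls without overlap were TMEM178B, with 48 and 32 against 7 and 5 (-2.54 ± 0.42 in log2), the glycine cleavage enzyme gene GLDC, with 31 and 56 against 4 and 14, and ATP2C2, a calcium and manganese pump of the secretory pathway, with 236 and 130 against 83 and 20. ATP2C2 changed by -2.07 ± 0.32, or by -1.37 without soft IPN replicate 2. Proline dehydrogenase PRODH had 58 and 89 against 10 and 27, the actin nucleator gene COBL had 187 and 172 against 33 and 77, and the nuclear pore gene NUP210 had 113 and 220 against 23 and 92. The cyclooxygenase gene PTGS1 had 355 and 972 against 138 and 218, with a change of -1.75 that was -0.95 without soft IPN replicate 2. Named after their values were seen, CD70 and TNFSF9, neighboring genes of TNF family ligands on chromosome 19, both fell, from 1049 and 764 to 408 and 396 and from 799 and 428 to 293 and 234.

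**Figure D3:**
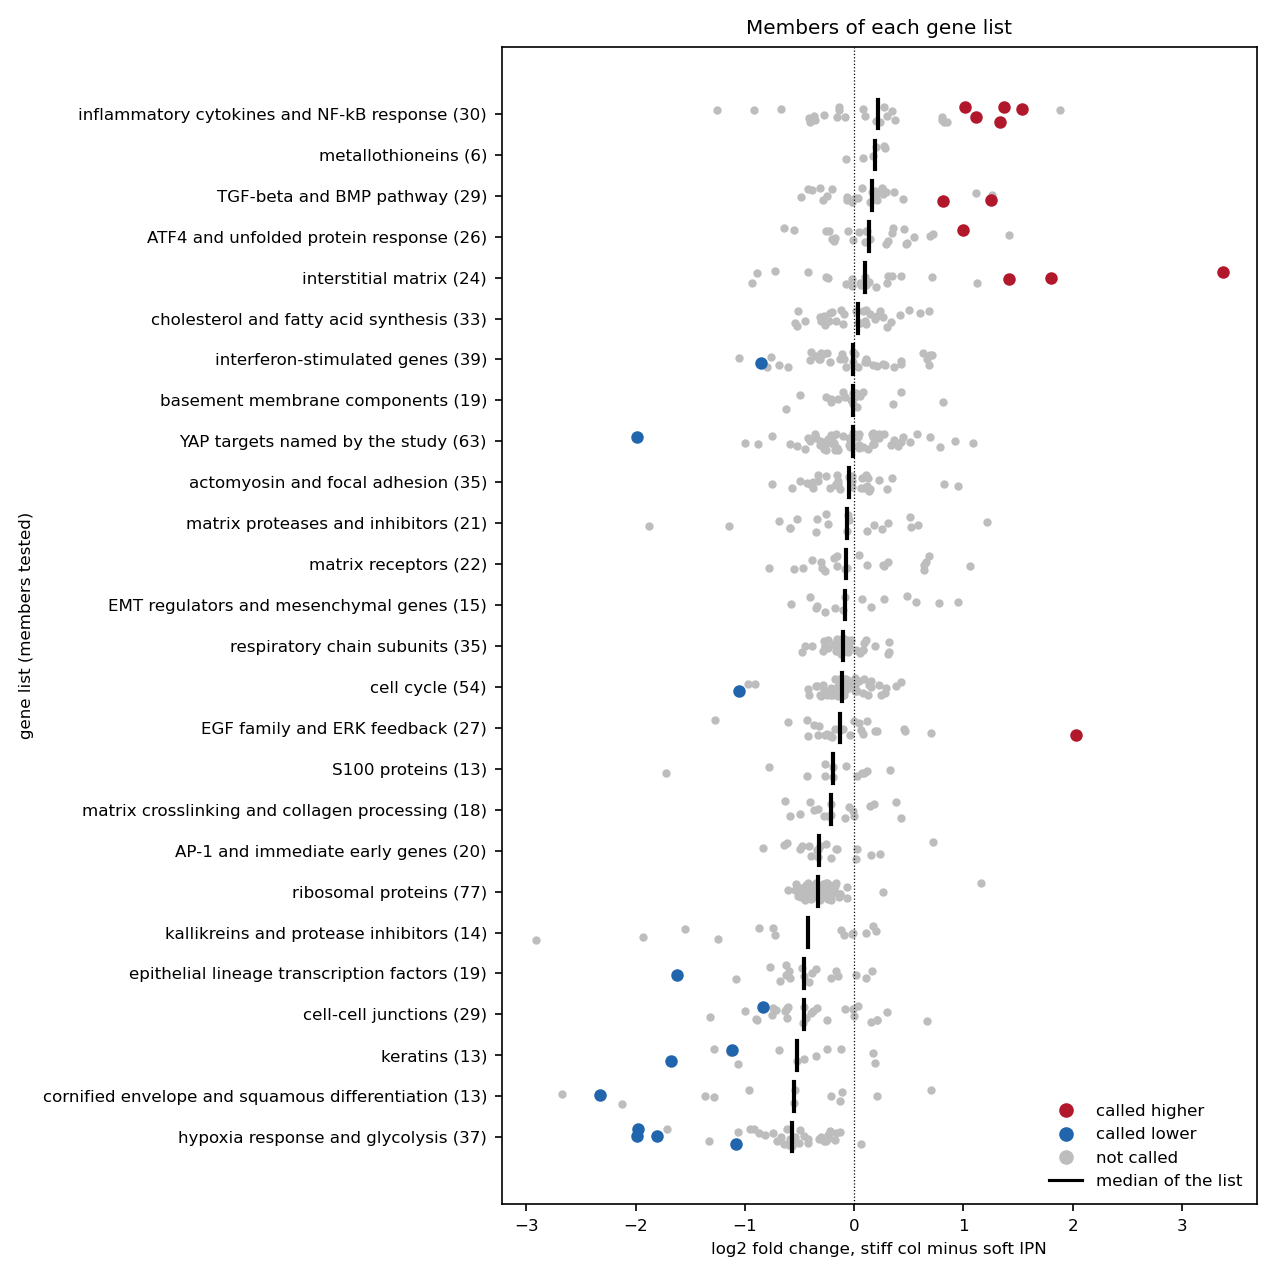
Log2 fold change of stiff col over soft IPN for each tested member of 26 gene lists, ordered by the median of the list (black bar), with called genes in red (higher) or blue (lower) and the others in grey. The medians run from -0.57 for the hypoxia list to 0.22 for the inflammatory list, an order that changes when single libraries are left out, and most points of every list were not called.

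YAP target genes were compared because the study asks whether stiffness acts through YAP. Of 63 tested YAP targets named by the study 31 were above 0 and 32 below, with a median of -0.01, and 1 fell, NDRG1, which is also in the hypoxia list. At an unadjusted p under 0.05, 6 were higher and 7 lower. YAP1 had 3221 and 3883 normalized counts in soft IPN and 2981 and 3845 in stiff col, and its paralog WWTR1 (TAZ) had 809 and 963 against 838 and 1063. The canonical target CTGF was equal in trial 1 and higher in stiff col in trial 2, at 71 and 34 against 72 and 102 (adjusted p = 0.367), and CYR61 had 282 and 231 against 287 and 379 (adjusted p = 0.458). ANKRD1 had 1 and 0 against 1 and 1, under the 3-read limit in each library, so a difference was not detectable at this depth. STAT3 and EP300 differed by -0.17 ± 0.15 and -0.06 ± 0.17 in log2, with STAT3 at 2461 and 2630 against 2227 and 2304 and EP300 at 428 and 589 against 444 and 519.

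Cell cycle genes gave 1 call among 54 tested, with a median of -0.11 that became 0.04 with equal sums. CDKN1C, an inhibitor of cyclin-dependent kinases, had 760 and 330 normalized counts in soft IPN and 408 and 142 in stiff col, lower within each trial but overlapping across trials (adjusted p = 0.0442). The proliferation marker MKI67 had 1166 and 3097 against 1084 and 2488, so that the trials differed more than the gels. Interferon-stimulated genes gave 1 fall among 39, IFITM2, with 1451 and 1806 against 882 and 905, whose reads may be shared with close paralogs. Limma called 0 of 20 AP-1 and immediate early genes (6 unadjusted), 0 of 33 of cholesterol and fatty acid synthesis (6 unadjusted), 0 of 35 respiratory chain subunits (3 unadjusted) and 0 of 6 metallothioneins (0 unadjusted).

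Ribosomal protein genes had small log2 differences, almost all below 0. Of 77 tested 0 were called by limma (4 unadjusted), yet 75 had a log2 fold change below 0 and 38 were lower without overlap, against 50.9% and 14.7% of all genes. The median was -0.33, with -0.17 in trial 1 and -0.47 in trial 2, and with libraries rescaled to equal sums it was -0.17, with 70 below 0. Since values are relative to the rest of each library, the level per cell was not measured.

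The other pair of gels offers a reference made from libraries that do not enter the comparison. Soft col:rBM minus stiff IPN also sets a gel with col-1 against one of rBM and alginate, but there the gel with col-1 is the soft one. Of the 77 called genes 32 (41.6%) moved the same way in both trials of that pair, against 24.8% of all genes tested, and 30 (39.0%) moved the opposite way in both, against 34.4%. Limma called 435 of 13045 genes (3.33%) between that pair of gels, among them 12 of the 32 and 9 of the 30. Genes that were higher in the col-1 gel of both pairs included FN1, with 7577 and 3936 normalized counts in stiff IPN and 28969 and 11569 in soft col:rBM, COL6A3, with 160 and 35 against 377 and 275, and SLC7A8, all 3 called in both pairs. POSTN, AREG and ID2 had the same direction in both trials but did not pass in the second pair (adjusted p = 0.139, 0.318 and 0.0533 by limma). AREG differed there by only 0.09 in log2 in trial 1, against 2.45 in trial 2. Genes that were lower in the col-1 gel of both pairs included MUC1, with 1700 and 3909 in stiff IPN and 520 and 582 in soft col:rBM, ELF3, with 544 and 712 against 53 and 8, and FXYD3, all 3 called in both pairs. TGM1, PPL and KRT14 had the same direction but did not pass in the second pair (adjusted p = 0.239, 0.0577 and 0.316 by limma), and TGM1 and KRT14 differed there by only -0.26 and -0.04 in trial 2.

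Among genes with the opposite direction in both trials, CXCL8, CCL20 and NFKBIZ were higher in the stiff gel and were called in both pairs. The values of CXCL3 were also higher in the stiff gel, and those of CA9, EGLN3, NDRG1, HK2 and CASP14 lower, but these 6 genes did not pass limma in the second pair, with adjusted p values of 0.391, 0.689, 0.451, 0.589, 0.207 and 0.109. Within trial 1 of that pair the log2 difference was only -0.09 for CXCL3, 0.33 for NDRG1 and 0.18 for HK2. IL33, the remaining called inflammatory gene, had no shared direction there, with -0.61 in trial 1 and 1.63 in trial 2 (adjusted p = 0.708 by limma). CXCL8 had 1973 and 3004 normalized counts in stiff IPN and 608 and 288 in soft col:rBM. CA9 had 918 and 36 in stiff IPN and 1408 and 1480 in soft col:rBM, and the stiff IPN library of trial 2 had the lowest CA9 value of all 8. Over the whole hypoxia list, 37 of 37 members had a log2 fold change above 0 in soft col:rBM minus stiff IPN, against 51.7% of all genes tested, with a median of 0.79, and 28 were above 0 in trial 1 and 37 in trial 2. In the inflammatory list 24 of 30 were below 0, with a median of -1.08. Ribosomal proteins were above 0 for 74 of 77, with a median of 0.41. Cornified envelope genes were below 0 for 11 of 13 in this pair too, with a median of -1.32. The 2 pairs of gels come from the same 2 trials, calcium was added to stiff IPN alone, and soft col:rBM kept rBM, so the parts of stiffness, col-1, rBM and alginate in these directions were not tested.

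**Figure D4:**
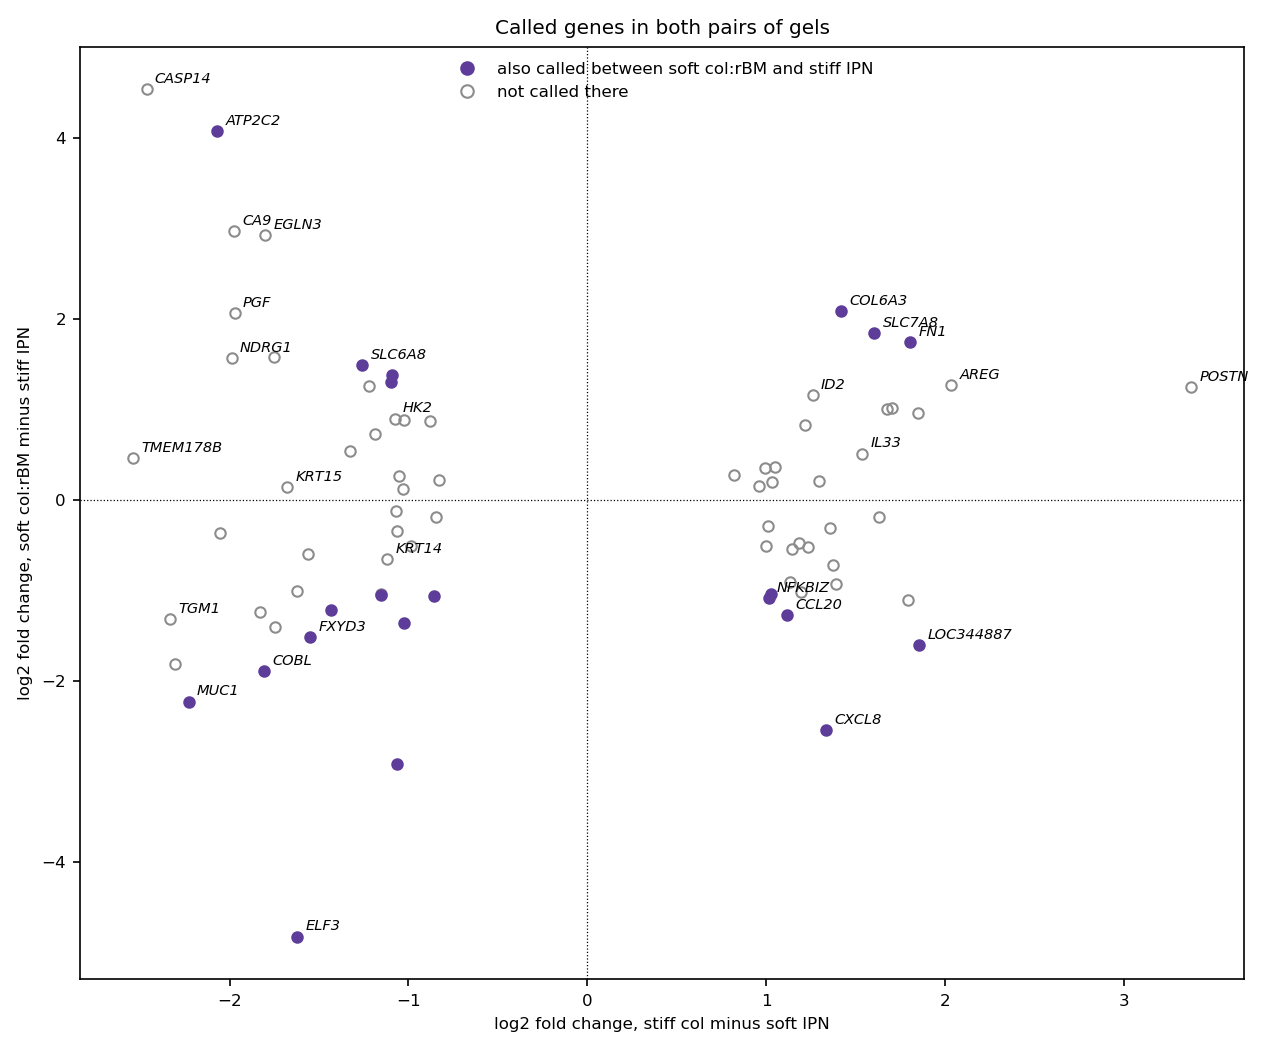
Log2 fold change of stiff col over soft IPN (horizontal axis) and of soft col:rBM over stiff IPN (vertical axis) for the 77 called genes, filled where the gene was also called in the latter pair. FN1, COL6A3 and SLC7A8 lie at the upper right and MUC1, ELF3 and FXYD3 at the lower left, with CXCL8 and CCL20 at the lower right and ATP2C2 and SLC6A8, the latter labelled after its values were seen, at the upper left.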

How the data were processed

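RNA-seq was performed on MCF10A cells in 4 gels, with 2 libraries each. Libraries were made with the TruSeq RNA kit. Trim Galore 0.3.3, TopHat2 2.0.13, SAMtools 1.1, HTSeq, DESeq2 and R 3.2.0 with hg19 are named in the submitters' processing notes, while the paper's methods name Bowtie2 for alignment and describe removal of low quality and multimapped reads. The annotation and strand setting used for counting are not given in the sources used here. As deposited, each value is a signal: the authors scaled read counts by 1 factor per library and rounded them, and the term normalized count is used here. Factors were read from the spacing of the values and do not give back exact reads, so no count model was used. The table lists 25369 symbols, of which 28 had become dates. These stayed in the fit and are not named. GENCODE lifted to hg19 gave positions for 22682 symbols (89.4%).

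Genes with at least 10 normalized counts in at least 2 of the 4 stiff col and soft IPN libraries were tested on log2(normalized count + 1), a scale that understates the change of low genes. Limma 3.58.1 (statmod 1.5.0, R 4.3.3) was used with the trial as a block, a mean-variance trend and robust moderation, and p values were adjusted by Benjamini-Hochberg over all genes tested, with a threshold of 0.05. The other 4 libraries were fitted separately in the same way. Fits of stiff col with stiff IPN or soft col:rBM had been planned but were not used, as they share the stiff col libraries. Trials pair the libraries: differences between trial 2 and trial 1 correlated across genes at r = 0.683 for the 2 gels and at 0.288 to 0.847 over the 6 pairs of gels, and the first principal component (63.1% of variance) separated the trials. With 2 libraries per gel an exact permutation test cannot go below p = 0.333 (two-sided), so none was used. Intervals from reads would cover counting error only.

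Genes were named if they had 1 of the 15 largest changes in either direction among called genes without overlap, with up to 6 called members of each list and 40 anchor genes added, and others are marked in the text. A few of these genes are not reported here. The gene lists and the comparison were chosen with earlier results of these data known. Promoters came from RefSeq, which held some called genes and not others. Alternatives were other pseudocounts, filters, scalings and moderation, no block, all 8 libraries, and each library or trial left out. Python 3.11.15, numpy 2.4.6, pandas 2.3.3 and matplotlib 3.10.9 were used.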

Additional observations from a re-analysis of the deposited data

How the results depend on the processing

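With 2 libraries per gel and only 1 residual degree of freedom per gene, the number of calls moved widely with the model. The sign of the 77 called genes did not change in the settings in which they were tested. In the fits without block, without filter, with other moderation or with all 8 libraries it could not change, as the estimates stay the same. Limma called 0 genes (0 higher, 0 lower) in the unpaired fit with no trial block, without the filter on low values, with neither trend nor robust moderation, and with all 8 libraries and the block, and 1556 genes had an unadjusted p under 0.05 without trend and robust moderation. Leaving out 1 library at a time gave 0 to 1 calls in the fit of the remaining 7 (0 higher and 0 to 1 lower), with 728 to 1387 at an unadjusted p under 0.05. The counts were 122 (52 higher, 70 lower) with a pseudocount of 5, 371 (160 and 211) with upper-quartile scaling, 295 (211 and 84) with equal library sums, and 39 (17 and 22) with the trend but without robust moderation, an alternative chosen after seeing the data. They stayed within 1.5 times the main count with a pseudocount of 0.5 (71), at least 10 in each library (103), median-of-ratios scaling (87) and, chosen after seeing the data, without symbols turned into dates (86). Of the 77 calls, 77 were also called with equal library sums and 76 with upper-quartile scaling. Equal library sums moved the median of all genes to 0.15 and turned the sign of list medians near 0, such as that of cell cycle genes. The cause of these shifts was not tested. Genes under 3 reads could not be compared at this depth.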
